A study of Drosophila melanogaster with 18 samples.

Results

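MicroRNAs were compared between the thorax and the fat body of adult Drosophila melanogaster, the fruit fly, with all 6 small RNA libraries of these 2 tissues, chosen by their labels out of 18 libraries in the series. All flies were 10-d-old, once-mated wild-type females of the wDah stock, and neither tissue carried a transgene or a treatment. The thorax libraries (n = 3) were made from the thorax without the gut. The fat body libraries (n = 3) were made from the abdomen without the gut and ovaries, so that the abdominal body wall and any other tissue left in the abdomen were part of these samples. The series also holds small RNA of brain and gut, used here only to place a miRNA among the 4 tissues, and messenger RNA of heads. The study used these libraries to find miRNAs that are particular to a tissue.

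A miRNA is a small RNA cut by nucleases from a hairpin precursor, and each hairpin can give a mature strand from its 5p arm and from its 3p arm. One strand is usually loaded into an Argonaute protein, and its seed, bases 2 to 8, pairs with target messenger RNAs and lowers their translation or stability. The fly thorax is mostly flight and leg muscle with nerve and epidermis, whereas the fat body stores fat and glycogen, makes yolk and immune proteins and responds to insulin, as liver and adipose tissue do in mammals.

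The sequences of miRNAs on which the comparisons below turn, taken from the RefSeq annotation of the release 6 assembly, are shown 5′ to 3′ with the seed in capitals. The first set was higher in thorax.
miR-1-3p: uGGAAUGUaaagaaguauggag
miR-277-3p: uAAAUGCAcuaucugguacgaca
miR-993-5p: uACCCUGUaguuccgggcuuuug
miR-993-3p: gAAGCUCGucucuacagguaucu
miR-10-5p: aCCCUGUAgauccgaauuuguu
miR-957-3p: uGAAACCGuccaaaacugaggc
miR-133-3p: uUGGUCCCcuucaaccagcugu
miR-932-5p: uCAAUUCCguagugcauugcag
miR-927-3p: cAAAGCGUuuggauucugaaac
miR-263a-5p: aAUGGCACuggaagaauucacggg
miR-263b-5p: cUUGGCACugggagaauucac
miR-10-5p and miR-993-5p, which come from the Hox gene region, share the run ACCCUGUAG, which begins at base 1 of miR-10-5p and at base 2 of miR-993-5p, so that their seeds differ by this shift.

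The second set was lower in thorax, and its first 2 members share the seed GACUAGA.
miR-279-3p: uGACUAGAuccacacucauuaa
miR-996-3p: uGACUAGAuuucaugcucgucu
miR-1015-3p: uCCUGGGAcaucucucuugcag
miR-33-5p: gUGCAUUGuagucgcauuguc
miR-274-5p: uUUGUGACcgacacuaacgggua
miR-314-3p: uAUUCGAGccaauaaguucgg
miR-970-3p: uCAUAAGAcacacgcggcuau
let-7-5p: uGAGGUAGuagguuguauagu
miR-100-5p: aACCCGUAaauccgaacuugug
miR-125-5p: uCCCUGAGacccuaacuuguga
The last 3 are cut from 1 transcript of the let-7 complex and have different seeds.

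The third set holds members that share a seed and were not called alike. miR-9a-5p was higher in thorax while miR-9b-5p and miR-9c-5p were lower, and miR-276b-3p and miR-13a-3p were higher while miR-276a-3p and miR-13b-3p were not called.
miR-9a-5p: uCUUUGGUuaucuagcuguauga
miR-9b-5p: uCUUUGGUgauuuuagcuguaug
miR-9c-5p: uCUUUGGUauucuagcuguaga
miR-276a-3p: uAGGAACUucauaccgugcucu
miR-276b-3p: uAGGAACUuaauaccgugcucu
miR-13a-3p: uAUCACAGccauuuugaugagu
miR-13b-3p: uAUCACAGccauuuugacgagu
Counted from the 5′ end, miR-276b-3p differs from miR-276a-3p by C10A and miR-13b-3p differs from miR-13a-3p by U18C, both outside the seed, so reads of these pairs are told apart by 1 base and their split is less certain than that of other names.

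The fourth set gives both arms of hairpins whose arms did not move together.
miR-277-5p: cGUGUCAGgagugcauuugca
miR-998-5p: aCUGAAUUcucgugggucugca
miR-998-3p: uAGCACCAugagauucagcuc
miR-929-5p: aAAUUGACucuaguagggaguc
miR-929-3p: cUCCCUAAcggagucagauug
miR-279-5p: aGUGGGUGgggguccaguguuucaca

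The thorax libraries held 9519544 to 9841880 miRNA counts and the fat body libraries 12476018 to 23261153. Of 426 mature names, 349 had a count in these libraries, 302 in thorax and 337 in fat body, and the 197 names that passed edgeR's expression filter held all but 0.00273% of thorax counts and 0.00528% of fat body counts. Levels are given as CPM, counts scaled to the same library total, which compare 1 miRNA between libraries. Fold changes are thorax over fat body with TMM scaling, which allows for the few miRNAs that fill most of a library, and a miRNA was called when edgeR's quasi-likelihood test gave a Benjamini-Hochberg adjusted p below 0.05. Scaling by library totals alone lowered the log2 fold changes of the tested miRNAs by a median of 0.39 and kept 118 of 123 calls. Among the miRNAs followed by name, it ended the calls of bantam-3p, miR-9a-5p, miR-10-5p and miR-1006-3p. The labels do not say whether replicates came from separate flies, so the p-values rest on the scatter among these 6 samples, part of which may be technical. In whole tissues, fewer cells of a type and less RNA per cell cannot be told apart.

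Of the 197 names, 16 reached the filter's level of 0.896 CPM in thorax libraries only and 4 in fat body libraries only. The filter largely fixed the direction of such names, and all 16 were called higher and all 4 lower in thorax. Of the 197 miRNAs tested, 123 (62.4%) were called, 63 of them (32%) higher and 60 (30.5%) lower in thorax, and 127 had an unadjusted p below 0.05. The CPM of the tissues did not overlap for 141 of the 197 (71.6%), and for 118 of the 123 called. The median size of a called change was 3.43-fold. Of the called miRNAs, 37 were higher by at least 2 in log2 and 18 were lower by as much. These counts include names whose direction the filter largely fixed. Of the 177 names that reached the level in both tissues, 47 were called higher and 56 lower. With scaling by library totals, 58 of the 197 were called higher and 78 lower, against 63 and 60 with TMM.

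**Figure D1:**
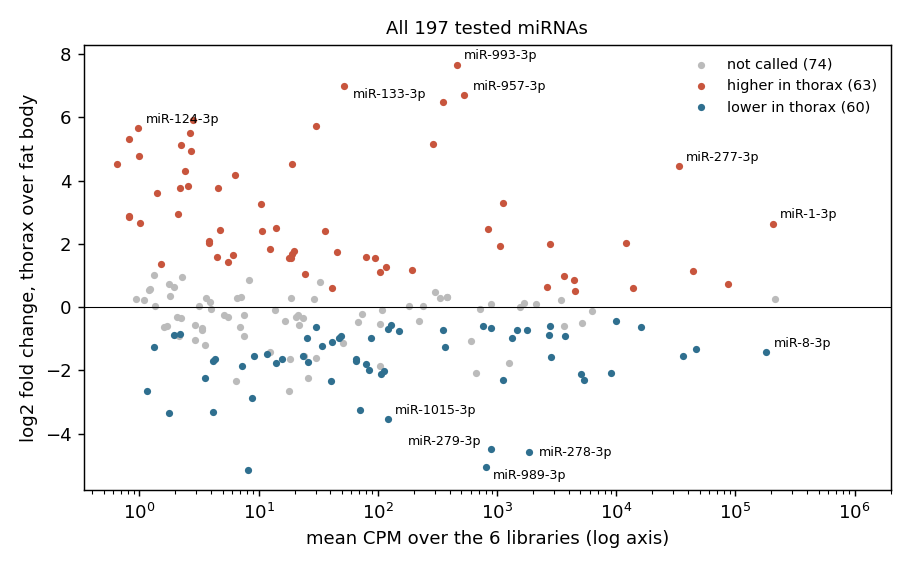
Log2 fold change of thorax over fat body against the mean CPM over the 6 libraries (log axis) for the 197 tested miRNAs, with 63 higher in thorax in red, 60 lower in thorax in blue and 74 not called in grey. The rises reach further from 0 than the falls, and miR-993-3p at 7.66 lies farthest up.

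Few miRNAs made up most of each library. The 10 names with the highest mean CPM held 90.9% of thorax counts and 86.7% of fat body counts, and 6 of the 8 most abundant names were the same in both tissues. miR-1-3p, which marks muscle from worms to humans, was the most abundant in thorax, with 31.4%, 37.5% and 32.6% of counts in the 3 thorax libraries, against 7.39%, 6.72% and 7.34% in the fat body libraries. The thorax thus carried its muscle marker in every library, while the fat body libraries, with abdominal body wall included, were not free of it. The difference was 6.23-fold after TMM scaling (log2 fold change 2.64 ± 0.16 SE, edgeR adjusted p = 6.21e-05). The opposite arm, miR-1-5p, had 3 counts over the thorax libraries and 2 over the fat body libraries and was not tested.

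miR-8-3p, which acts in the fly fat body on growth through insulin signalling, was the most abundant in fat body. It took 8.76%, 7.42% and 7.70% of counts in the thorax libraries, against 23.8%, 30.1% and 30.9% in the fat body libraries (log2 fold change -1.43 ± 0.10 SE, edgeR adjusted p = 9.26e-05). miR-14-3p, which restrains cell death and fat storage in flies, made up 2.14% ± 0.176 of thorax counts and 7.12% ± 1.13 of fat body counts (SD, n = 3 each, log2 fold change -1.33 ± 0.13 SE, edgeR adjusted p = 0.000396). miR-184-3p, needed in the female germ line and early embryo, averaged 1.55% ± 0.417 of thorax counts and 5.68% ± 2.27 of fat body counts (SD, n = 3 each), and fat body replicate 1 was its highest library (log2 fold change -1.54 ± 0.40 SE, edgeR adjusted p = 0.0168). All 3 were lower in thorax in every library.

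miR-276a-3p was the second most abundant name in both tissues, with 20.6% ± 0.894 of thorax counts and 22.6% ± 2.43 of fat body counts (SD, n = 3 each), and was not called (log2 fold change 0.25 ± 0.16 SE, edgeR adjusted p = 0.237). Its call turned on the scaling and on single libraries, since it was higher with RLE size factors (log2 fold change 0.41, adjusted p = 0.0153), with DESeq2 (0.41, 0.0379), with TMM without miR-1-3p (0.38, 0.0338), among names with a mean of at least 10 CPM (0.44, 0.00393), with a filter of 10 counts (0.28, 0.0343), without any 1 of thorax replicates 2 and 3 and fat body replicates 1 and 3 (0.25 to 0.43, 0.00805 to 0.0384) and without both replicate 1 libraries (0.39, 0.0311). bantam-3p, which drives growth and blocks cell death by repressing hid, averaged 9.61% ± 0.865 of thorax counts and 7.68% ± 1.22 of fat body counts (SD, n = 3 each), and its rise (log2 fold change 0.73 ± 0.09 SE, edgeR adjusted p = 0.000976) was lost with library totals, where the log2 fold change was 0.32 with an adjusted p of 0.0903. miR-34-5p, which guards the ageing fly brain, averaged 5.53% ± 0.475 of thorax counts and 3.26% ± 0.246 of fat body counts (SD, n = 3 each, log2 fold change 1.14 ± 0.16 SE, edgeR adjusted p = 0.00122). For miR-263a-5p the means were 1.82% ± 0.0469 of thorax counts and 0.585% ± 0.0940 of fat body counts (SD, n = 3 each, log2 fold change 2.01 ± 0.22 SE, edgeR adjusted p = 0.000524), and for miR-277-3p they were 6.33% ± 0.471 of thorax counts and 0.383% ± 0.0653 of fat body counts (SD, n = 3 each), the widest gap among these 10 names as a ratio.

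**Figure D2:**
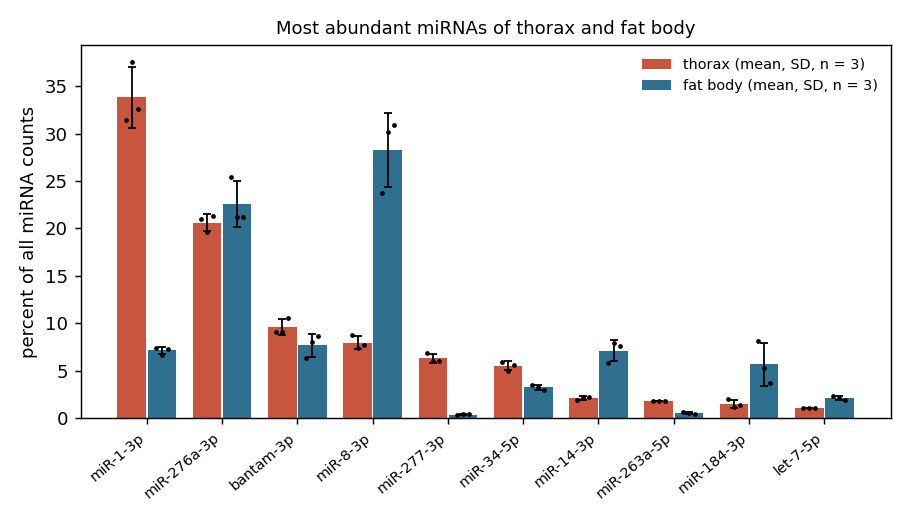
Share of all miRNA counts in percent for the 10 names that are among the 8 most abundant of thorax or fat body, with thorax bars (red) left of fat body bars (blue); bars are means, error bars SD and dots the 3 libraries. miR-1-3p and miR-277-3p stand above in thorax, and miR-8-3p, miR-14-3p and miR-184-3p stand above in fat body.

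The largest rise was that of miR-993-3p, cut from a long non-coding RNA (chr3R:6776333-6776451, release 6, + strand) in the Hox gene region that patterns the body along its length. Its CPM were 1002, 849.8 and 880.0 in the thorax libraries, against 9.59, 3.77 and 3.56 in the fat body libraries, a 202-fold difference (log2 fold change 7.66 ± 0.64 SE, edgeR adjusted p = 0.000193), and without fat body replicate 1 the log2 fold change was 8.28. Its other arm, miR-993-5p, moved with it, at 82.3, 113 and 115 CPM in thorax, against 1.42, 0.802 and 0.872 in fat body (log2 fold change 6.98 ± 0.42 SE, edgeR adjusted p = 6.21e-05). The lowest thorax library lay far above the highest fat body library for both arms.

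miR-957-3p, from a hairpin between genes (chr3L:22518196-22518291), had 934, 1104 and 1095 CPM in thorax, against 17.5, 12.2 and 8.65 in fat body (log2 fold change 6.71 ± 0.44 SE, edgeR adjusted p = 9.17e-05). miR-133-3p, a muscle miRNA in vertebrates, had 712, 775 and 609.9 CPM in thorax, against 10.7, 8.74 and 11.1 in fat body (log2 fold change 6.49 ± 0.25 SE, edgeR adjusted p = 1.12e-05). Both were far more abundant in the brain libraries, where their means were 17904 and 3333 CPM. miR-932-5p, from an intron of Nlg2, which encodes a synaptic adhesion protein, had 66.3, 53.7 and 57.4 CPM in thorax, against 1.38, 1.36 and 1.60 in fat body (log2 fold change 5.74 ± 0.19 SE, edgeR adjusted p = 9.06e-06). miR-987-5p had 591, 542 and 545 CPM in thorax, against 22.3, 18.8 and 20.2 in fat body (log2 fold change 5.16 ± 0.21 SE, edgeR adjusted p = 1.18e-05). miR-927-3p, from an intron of mmd on chromosome X, had 34.3, 32.1 and 41.1 CPM in thorax, against 1.59, 2.48 and 2.04 in fat body (log2 fold change 4.53 ± 0.24 SE, edgeR adjusted p = 4.09e-05). The tissues did not overlap for any of the 5, and every one had its highest mean in brain among the 4 tissues.

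miR-277-3p joined a high level to a large difference. It is known in flies for control of the genes that break down branched-chain amino acids. Its CPM were 68789.7, 60611 and 60649 in thorax, against 3113, 4004 and 4385 in fat body, 21.9-fold higher in thorax (log2 fold change 4.46 ± 0.12 SE, edgeR adjusted p = 5.59e-06). miR-263b-5p, which protects bristle cells from apoptosis and lies in an intron of meru, had 2635, 1390.4 and 1936 CPM in thorax, against 272, 289 and 217 in fat body (log2 fold change 3.31 ± 0.30 SE, edgeR adjusted p = 0.000278). The tissues did not overlap for either.

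miR-210-3p, on chromosome X and named by the study for its place in the brain, rose least surely among the 10 largest rises. It had 4.57, 5.46 and 44.9 CPM in thorax, against 1.72, 3.13 and 2.62 in fat body (log2 fold change 3.25 ± 0.98 SE, edgeR adjusted p = 0.0281). Thorax replicate 3 was far above the other two, and without it the log2 fold change was 1.60 with an adjusted p of 0.0189, while leaving out any 1 fat body library gave adjusted p-values of 0.0664 to 0.0881. With the replicate block, which fits a term for each replicate number, the adjusted p was 0.0634, and with limma-voom 0.0594.

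**Figure D3:**
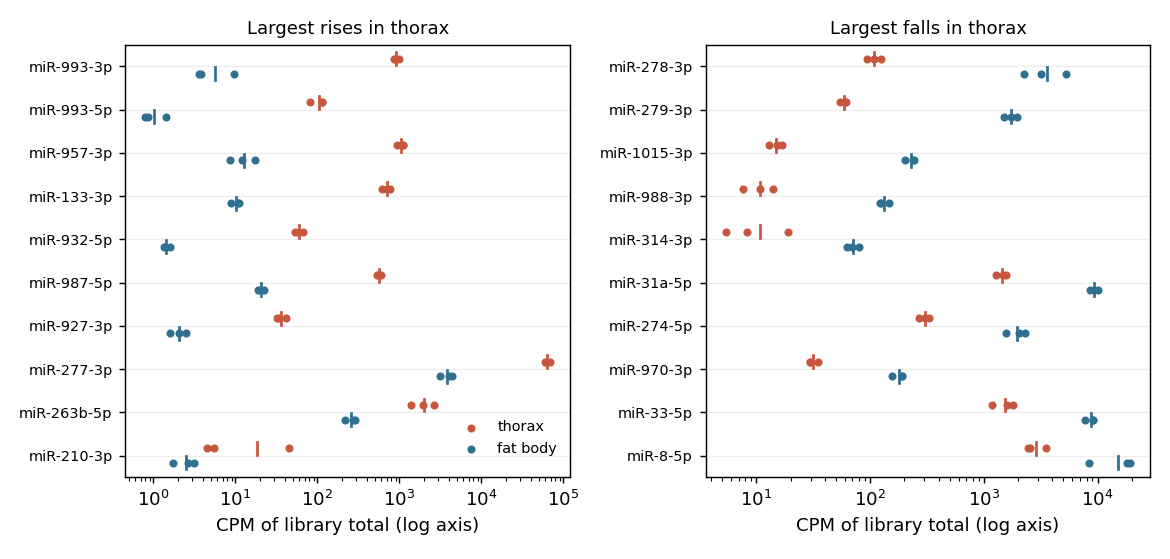
CPM (log axis) in each library for the 10 largest rises (left panel) and 10 largest falls (right panel) among called miRNAs with a mean of at least 10 CPM and no overlap; dots are libraries, vertical marks are means (n = 3), and thorax (red) lies above fat body (blue) in each row. Among the rises, miR-210-3p has a thorax library, at 44.9 CPM, far from the other 2.

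Among the falls with a mean of at least 10 CPM and no overlap, miR-278-3p, which acts in the fly fat body on energy balance and insulin sensitivity, changed most. It had 94.1, 124 and 109 CPM in the thorax libraries, against 2234, 3208 and 5251 in the fat body libraries (log2 fold change -4.59 ± 0.31 SE, edgeR adjusted p = 9.26e-05), and was 24.1-fold higher in fat body. miR-279-3p, which shapes the fly's carbon dioxide sensing neurons, had 61.1, 54.7 and 60.2 CPM in thorax, against 1488, 1956 and 1735 in fat body (log2 fold change -4.48 ± 0.16 SE, edgeR adjusted p = 9.06e-06). miR-996-3p, with the same seed and from the same long non-coding RNA on chromosome 3R, fell as well, with 24.0, 26.2 and 36.3 CPM in thorax, against 123, 119.7 and 149 in fat body (log2 fold change -1.78 ± 0.19 SE, edgeR adjusted p = 0.000537). Their hairpins are 1499 bases apart.

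miR-1015-3p, a mirtron spliced out of an intron of CG6432, had its highest mean in the fat body among the 4 tissues. Its CPM were 16.9, 12.9 and 15.3 in thorax, against 239, 203 and 242 in fat body (log2 fold change -3.54 ± 0.19 SE, edgeR adjusted p = 4.09e-05), with means of 0.780 in brain and 0.614 in gut. miR-274-5p likewise was highest in fat body, with 307, 267 and 328 CPM in thorax, against 1554, 2019 and 2282 in fat body (log2 fold change -2.29 ± 0.13 SE, edgeR adjusted p = 4.52e-05). miR-33-5p lies in an intron of SREBP, the gene for a lipid synthesis regulator, at chr3L:19797961-19798059, and in mammals its relatives act on cholesterol export. It had 1190.0, 1597 and 1797 CPM in thorax, against 9169.9, 7753 and 9028 in fat body (log2 fold change -2.11 ± 0.21 SE, edgeR adjusted p = 0.00038).

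miR-31a-5p, which acts in embryo segmentation, had 1568, 1269 and 1471 CPM in thorax, against 9976, 8484 and 9325 in fat body (log2 fold change -2.31 ± 0.16 SE, edgeR adjusted p = 9.26e-05). miR-988-3p had 10.7, 7.56 and 13.9 CPM in thorax, against 125, 147 and 123 in fat body (log2 fold change -3.24 ± 0.26 SE, edgeR adjusted p = 0.000182). miR-970-3p, from an intron of Tomosyn, a synaptic vesicle gene, had 29.5, 35.0 and 29.4 CPM in thorax, against 156, 191 and 191 in fat body (log2 fold change -2.11 ± 0.17 SE, edgeR adjusted p = 0.000193). None of the 3 overlapped between tissues. miR-8-5p, the opposite arm of miR-8-3p, had 3548, 2459 and 2553 CPM in thorax, against 19339.8, 17923 and 8337 in fat body (log2 fold change -2.07 ± 0.42 SE, edgeR adjusted p = 0.00601), with fat body replicate 3 well below its companions.

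Of the 12 nervous system names, 9 passed the filter and were called higher in thorax, against 32% of all tested. For 4 of the 9, both arms of miR-124, miR-137-5p and miR-219-3p, the filter's level was reached in thorax libraries only, so that the filter largely fixed their direction. The other 5 had a median log2 fold change of 2.50, against -0.32 for the 177 tested names that reached the level in both tissues, of which 26.6% were called higher. With the replicate block 8 of the 9 were called. miR-137-3p had 105, 118 and 109 CPM in thorax, against 36.0, 53.9 and 56.2 in fat body (log2 fold change 1.60 ± 0.18 SE, edgeR adjusted p = 0.000625). miR-315-5p, which acts on Wingless signalling, had 24.6, 19.1 and 23.7 in thorax, against 2.58, 8.82 and 4.43 in fat body (log2 fold change 2.50 ± 0.46 SE, edgeR adjusted p = 0.00402), and a log2 fold change of 3.19 without fat body replicate 2. miR-1000-5p had 13.5, 17.2 and 20.2 in thorax, against 4.43, 3.37 and 4.80 in fat body (log2 fold change 2.41 ± 0.26 SE, edgeR adjusted p = 0.000523). The summed level of the list was 175 to 221 CPM in the thorax libraries and 47.1 to 71.3 CPM in the fat body libraries. Most of it in fat body, and much of it in thorax, was miR-137-3p. That name had its highest mean in gut, at 1133 CPM, against 814 CPM in brain, so the sum is not a measure of nerve tissue alone.

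miR-124, the defining miRNA of neurons, was near its limit of detection. miR-124-3p had 56 counts over the thorax libraries and 2 over the fat body libraries, a ratio of 47.7 in CPM with an exact 95% interval of 12.6 to 404 that covers counting error only. Both fat body counts were in replicate 1, and the fitted log2 fold change was 7.59 without that library, against 5.66 with it. miR-124-5p had 6.60, 3.47 and 2.79 CPM in thorax, against 0.0860, 0.401 and 0 in fat body (log2 fold change 5.13 ± 0.90 SE, edgeR adjusted p = 0.00337), and a log2 fold change of 6.59 without fat body replicate 2. In brain the mean of miR-124-3p was 102 CPM. The part of nerve tissue in the other rises was not tested.

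Of the 63 miRNAs higher in thorax, the highest mean among the 4 tissues was in brain for 37, in gut for 14 and in thorax for 12. Of the 60 lower ones it was in fat body for 31, in gut for 18 and in brain for 11, and of all 197 it was in brain for 72, gut for 59, fat body for 54 and thorax for 12. The brain mean was above the thorax mean for 68.3% of those higher, 55% of those lower and 60.9% of all tested. The 63 include the 16 names that reached the filter's level in thorax libraries only. The 60 include the 4 that reached it in fat body libraries only. These names were not set apart in the counts by tissue, so the shares partly reflect the filter. All 12 tested names with their highest mean in thorax were thus among the 63 higher ones. A name lower in thorax than in fat body could not have its highest mean in thorax. The means are CPM of library totals, without TMM scaling.

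Of the 12 sensory organ names, 7 were higher and 3 lower, against 32% and 30.5% of all tested, with a median of 0.80. miR-263b-3p, among the 7, reached the filter's level in thorax libraries only. Of the other 11, 54.5% were higher and 27.3% lower (median 0.62). Among the 177 names that reached the level in both tissues, 26.6% were higher and 31.6% lower (median -0.32). The 2 arms of miR-263a, the 2 of miR-263b and the 2 of miR-9a were all higher, as was miR-7-5p, a regulator of photoreceptor differentiation, with 4796, 4078 and 4359 CPM in thorax, against 3102, 2578 and 3116 in fat body (log2 fold change 0.98 ± 0.15 SE, edgeR adjusted p = 0.00169). miR-263a-5p had 17769, 18240.5 and 18708 in thorax, against 6815, 5797 and 4938 in fat body, and reached 94857 CPM in gut. The 3 lower names were miR-279-3p and both arms of miR-996, so that the list held members of both directions.

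The seed CUUUGGU divided likewise. miR-9a-5p, which keeps sensory precursor numbers in check, had 14269, 14359.5 and 15878 CPM in thorax, against 11092, 13271 and 13970.3 in fat body (log2 fold change 0.62 ± 0.09 SE, edgeR adjusted p = 0.00155), and with library totals its log2 fold change was 0.22 with an adjusted p of 0.164. In the fit of all 12 libraries, which adds brain and gut, the adjusted p was 0.0943. miR-9b-5p had 2276, 2017 and 2128 in thorax, against 5524, 4764 and 5651 in fat body (log2 fold change -0.92 ± 0.13 SE, edgeR adjusted p = 0.00155). miR-9c-5p had 1498, 1654 and 1687 in thorax, against 4900.4, 3050.3 and 3475 in fat body (log2 fold change -0.87 ± 0.26 SE, edgeR adjusted p = 0.0281), and was not called with the replicate block (adjusted p = 0.0571) or without any 1 thorax library (0.0523 to 0.0753). Summed over the 3 names, the seed's level was 18031 to 19693 CPM in the thorax libraries and 21086 to 23096 CPM in the fat body libraries.

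miR-9b and miR-9c lie with miR-306 and miR-79 in introns of grp on chromosome 2L, and of the 7 tested names of this cluster 4 were lower, against 30.5% of all tested, and 3 not called (median -0.69). miR-306-5p had 70.3, 81.4 and 81.4 CPM in thorax, against 142, 153 and 207 in fat body (log2 fold change -0.69 ± 0.16 SE, edgeR adjusted p = 0.00931), a call lost without any 1 of thorax replicates 2 and 3 and fat body replicates 2 and 3 (adjusted p 0.0502 to 0.126), with RLE size factors (0.0907) and with DESeq2 (0.0522). miR-306-3p was not called (log2 fold change -0.47 ± 0.27 SE, edgeR adjusted p = 0.172) other than with library totals (adjusted p = 0.0175). Neither arm of miR-79 was called. Every called member of the cluster moved one way, and 2 were called without thorax replicate 2 and 2 without thorax replicate 3.

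The Hox cluster list had 5 tested names, 4 higher and 1 lower, against 32% and 30.5% of all tested (median 0.87). Besides both arms of miR-993, miR-10-3p rose, with 5265, 4721 and 5473 CPM in thorax, against 3548, 3150.4 and 4494 in fat body (log2 fold change 0.87 ± 0.13 SE, edgeR adjusted p = 0.00151). miR-10-5p had 2795, 2457 and 3317 in thorax, against 2799, 1912 and 2447 in fat body, which overlap (log2 fold change 0.64 ± 0.21 SE, edgeR adjusted p = 0.0402), and was not called with library totals (log2 fold change 0.26, adjusted p = 0.27), in the fit of all 12 libraries (adjusted p = 0.153) or without thorax replicate 1 (adjusted p = 0.0878). miR-iab-4-5p, from the bithorax region that patterns the abdomen, had 15.6, 17.6 and 25.7 in thorax, against 33.4, 39.3 and 48.3 in fat body (log2 fold change -0.63 ± 0.22 SE, edgeR adjusted p = 0.0468). Its call was lost with RLE size factors (adjusted p = 0.169), with DESeq2 (0.135), with TMM without miR-1-3p (0.115), with each other filter on counts (0.119 to 0.18) and without any 1 library other than fat body replicate 1 (0.0855 to 0.344). miR-993 and miR-iab-4-5p stood on opposite sides, and miR-iab-8-5p had too few counts for the test.

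The let-7 complex, which times development and is kept in adult muscle and nerve, was lower in thorax in 5 of 6 names, against 30.5% of all tested (median -0.79). The 6 names are both arms of 3 hairpins of 1 transcript, so they are not separate observations. let-7-5p had 10849.8, 11262 and 10403 CPM in thorax, against 23932, 21445 and 19292 in fat body (log2 fold change -0.61 ± 0.18 SE, edgeR adjusted p = 0.0281), and lost its call without thorax replicate 1, thorax replicate 3 or fat body replicate 2 (adjusted p 0.0561 to 0.112). miR-100-5p had 2110.1, 1528 and 1991 in thorax, against 3526, 3772 and 3911 in fat body (log2 fold change -0.60 ± 0.13 SE, edgeR adjusted p = 0.00842), and its call was lost without thorax replicate 2, thorax replicate 3 or fat body replicate 3 (0.0510 to 0.0777). miR-125-5p had 868, 489.6 and 882 in thorax, against 1718, 1963 and 2051 in fat body (log2 fold change -0.97 ± 0.22 SE, edgeR adjusted p = 0.00875). The CPM of all 6 names were lower in every thorax library than in any fat body library, and miR-100-3p alone was not called (log2 fold change -0.55 ± 0.24 SE, edgeR adjusted p = 0.0872), although it was with library totals (adjusted p = 0.0261) and without fat body replicate 1 (0.0123). Without thorax replicate 3, 3 of the 6 were called lower. In the fit of all 12 libraries 2 of the 6 were, with let-7-5p (adjusted p = 0.0917), miR-100-5p (0.352) and miR-125-5p (0.159) not called.

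The miR-277 cluster on chromosome 3R had 3 of 6 names higher, 1 lower and 2 not called, so that 4 of 6 were called, against 62.4% of all tested. The hairpins of miR-277 (chr3R:10100022-10100121) and miR-34 are 814 bases apart in 1 long non-coding RNA, with that of miR-317 upstream. Both arms of miR-34 were higher, miR-34-3p with 175, 151 and 131 CPM in thorax, against 72.1, 94.3 and 84.5 in fat body (log2 fold change 1.26 ± 0.19 SE, edgeR adjusted p = 0.0016). miR-317-3p was not called (log2 fold change 0.23 ± 0.09 SE, edgeR adjusted p = 0.0771) other than with TMM without miR-1-3p (adjusted p = 0.0356), while miR-317-5p was lower (log2 fold change -0.67 ± 0.16 SE, edgeR adjusted p = 0.0131), a call lost without thorax replicate 3 (adjusted p = 0.054) and in the fit of all 12 libraries (0.184). Neighbours in this cluster thus differed in fold change, from 4.46 for miR-277-3p to -0.67 for miR-317-5p.

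Of the 14 growth and metabolism names, 9 were lower in thorax and only bantam-3p was higher, against 30.5% and 32% of all tested (median -0.76). The list does not hold miR-277, which is counted with its cluster and whose 3p strand was far higher in thorax, so these counts depend on membership. Beside miR-8, miR-14, miR-278 and miR-33, which are given above, both arms of miR-305, a regulator of intestinal stem cells, were called lower. miR-305-5p had 7009, 6359 and 8077 CPM in thorax, against 10621, 12667 and 15458 in fat body (log2 fold change -0.45 ± 0.11 SE, edgeR adjusted p = 0.0116), and was lost with RLE size factors (log2 fold change -0.32, adjusted p = 0.177), with DESeq2 (0.228) and without any 1 of thorax replicates 2 and 3 and fat body replicates 2 and 3 (0.151 to 0.362). miR-275-3p had 3227, 1938 and 2339.7 in thorax, against 6193, 4474 and 3906 in fat body, and was called with the replicate block (adjusted p = 0.0348) and not without it (0.135). Without thorax replicate 2, or without thorax replicate 3, 6 of the names were called lower.

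The miR-2 family, which represses cell death genes in flies, had 3 of 16 names higher, 6 lower and 7 not called, against 32% higher and 30.5% lower of all tested (median -0.11). Of the 16, 2 reached the filter's level in thorax libraries only and 2 in fat body libraries only. Of the other 12, 8.33% were higher and 33.3% lower (median -0.11), against 26.6% and 31.6% of the 177 names that reached it in both tissues. The 6 lower calls were not stable: none was made without thorax replicate 2, 1 without thorax replicate 1 or fat body replicate 2, 2 without thorax replicate 3 or fat body replicate 3, 2 with RLE size factors, 3 with DESeq2 and 4 with the replicate block. Among its 3p strands with the seed AUCACAG, miR-13a-3p was higher, with 9.04, 8.51 and 7.44 CPM in thorax, against 0.860, 1.12 and 0.364 in fat body (log2 fold change 3.76 ± 0.47 SE, edgeR adjusted p = 0.000877). The more abundant strands were not called: miR-11-3p (log2 fold change -0.12 ± 0.15 SE, edgeR adjusted p = 0.485), miR-13b-3p (log2 fold change -0.05 ± 0.27 SE, edgeR adjusted p = 0.889) and miR-2b-3p (log2 fold change 0.48 ± 0.24 SE, edgeR adjusted p = 0.135). miR-11-3p was lower with library totals (log2 fold change -0.53, adjusted p = 0.0183), and miR-2b-3p was higher with RLE size factors (0.64, 0.0394), with DESeq2 (0.64, 0.0149), with TMM without miR-1-3p (0.61, 0.0394), among names with a mean of at least 10 CPM (0.65, 0.0439) and without fat body replicate 2 (0.83, 0.00999). miR-308-3p was lower on 1, 1 and 5 counts in thorax, against 38, 14 and 48 counts in fat body (log2 fold change -2.65 ± 0.69 SE, edgeR adjusted p = 0.0166), and its log2 fold change was -3.65 without thorax replicate 3 and -2.05 without fat body replicate 3. It reached the filter's level in fat body libraries only, and its call was lost without thorax replicate 1 (adjusted p = 0.0553), thorax replicate 2 (0.0927) or both replicate 1 libraries (0.0761). The 3p strands of miR-2a, miR-2b and miR-13b each come from 2 hairpins, and their counts cannot be divided between them.

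The mirtrons, hairpins made by splicing in place of the first cut by Drosha, had 7 of 14 names higher, 4 lower and 3 not called, against 32% higher and 30.5% lower of all tested (median 0.57). Of the 7, miR-1016-5p and miR-1017-3p reached the filter's level in thorax libraries only, so that the filter largely fixed their direction. Of the other 12 mirtron names, 41.7% were higher and 33.3% lower (median 0.38). Among the 177 names that reached the level in both tissues, 26.6% were higher and 31.6% lower (median -0.32). miR-1012-5p had 123, 131 and 136 CPM in thorax, against 88.5, 76.0 and 70.4 in fat body (log2 fold change 1.11 ± 0.21 SE, edgeR adjusted p = 0.00449). miR-1010-3p had 82.2, 54.9 and 63.6 in thorax, against 41.5, 19.2 and 13.3 in fat body (log2 fold change 1.76 ± 0.53 SE, edgeR adjusted p = 0.0279), with a log2 fold change of 2.36 without fat body replicate 1 and no call without thorax replicate 1 (adjusted p = 0.0761). miR-1006-3p overlapped between the tissues (log2 fold change 0.59 ± 0.16 SE, edgeR adjusted p = 0.0171), and its call was lost with library totals (adjusted p = 0.367), in the fit of all 12 libraries (0.197) and without thorax replicate 1, fat body replicate 1 or fat body replicate 3 (0.0709 to 0.0879).

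In the miR-12 cluster of Gmap on chromosome X, 1 of 5 names was higher, 1 lower and 3 not called, against 32% higher and 30.5% lower of all tested (median 0.29). miR-304-5p had 270.3, 227 and 236 CPM in thorax, against 138, 144 and 147 in fat body (log2 fold change 1.17 ± 0.14 SE, edgeR adjusted p = 0.000839). miR-283-5p, from the same intron cluster, went the other way, with 864, 865 and 1022 in thorax, against 1999, 1821 and 2168 in fat body (log2 fold change -0.73 ± 0.13 SE, edgeR adjusted p = 0.00382). miR-12-5p was not called (log2 fold change 0.29 ± 0.12 SE, edgeR adjusted p = 0.0711), but was higher with limma-voom (adjusted p = 0.0474), with TMM without miR-1-3p (0.0317) and among names with a mean of at least 10 CPM (0.0307). The 12 names of the testis-rich miR-959 cluster summed to 0.735 to 1.83 CPM in the thorax libraries and 0.962 to 7.27 CPM in the fat body libraries, and none passed the filter.

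Both replicate 1 libraries were high in a neighbouring pair of miRNAs on the ovary list, miR-318-3p and miR-994-5p, although the dissection was meant to leave the ovaries out of the fat body. miR-318-3p had 1471, 36.8 and 48.5 CPM in thorax, against 5951, 46.5 and 70.2 in fat body. miR-994-5p, whose hairpin lies 74 bases from that of miR-318, had 632, 22.9 and 23.5 in thorax, against 3241, 28.4 and 74.3 in fat body. In thorax replicate 1 they were 34.5-fold and 27.2-fold above the mean of the other thorax libraries, and in fat body replicate 1 they were 102-fold and 63.1-fold above the mean of the other fat body libraries. Neither was called (log2 fold change -1.75 ± 2.26 SE, edgeR adjusted p = 0.515 and log2 fold change -2.09 ± 2.15 SE, edgeR adjusted p = 0.423), and without fat body replicate 1 their log2 fold changes turned positive, at 3.46 and 2.44.

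The ovary and early embryo list had 1 of 8 tested names called, against 62.4% of all tested, miR-989-3p, which acts in border cell migration in the ovary. It had 13.6, 58.9 and 42.7 CPM in thorax, against 3641, 45.1 and 1027 in fat body, and the tissues overlap (log2 fold change -5.03 ± 1.60 SE, edgeR adjusted p = 0.0336). Thorax replicate 1 was the lowest of the 6 libraries for it, and in that library miR-6-3p, miR-5-5p and miR-286-3p, at 15.5, 10.8 and 11.4 CPM, were not the highest of the thorax values either. The call was lost with the replicate block (adjusted p = 0.22), with limma-voom (0.154), without both replicate 1 libraries (log2 fold change -2.93, adjusted p = 0.134), without fat body replicate 1 (-3.48, 0.064) and without any 1 thorax library or fat body replicate 3 (0.051 to 0.0977). The summed level of the list was 2170, 157 and 233 CPM in the thorax libraries, against 13027, 290.2 and 1273 CPM in the fat body libraries, with 5 of its 20 names at 0 in thorax and 3 in fat body. With both replicate 1 libraries left out 65 miRNAs were called higher and 57 lower, and 113 of the 123 calls remained.

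The miR-92 family had no call by edgeR among its 7 tested names, against 62.4% of all tested (median -1.86). None had an unadjusted p below 0.05. Of the 7, limma-voom called none and DESeq2 called 1, as higher, against 66 higher and 56 lower of all 197 with DESeq2. miR-312-3p had 107, 5.99 and 6.09 CPM in thorax, against 466, 18.5 and 22.6 in fat body (log2 fold change -1.86 ± 1.76 SE, edgeR adjusted p = 0.392). miR-92b-3p had 126, 36.6 and 64.0 in thorax, against 275, 68.7 and 50.5 in fat body (log2 fold change -0.52 ± 0.83 SE, edgeR adjusted p = 0.596). With the replicate block 4 of the 7 were called lower, against 60 of all 197. They were miR-310-3p (adjusted p = 0.0174), miR-311-5p (0.00435), miR-312-3p (0.00532) and miR-92a-3p (0.0462). The block was fitted because same-numbered libraries deviate together, and that rests largely on the ovary and miR-92 names. Without those names the same-numbered correlations were 0.19, -0.03 and -0.05, so these calls are no separate support for a fall. Without both replicate 1 libraries 3 were called lower and 1 higher, against 57 and 65 of all 197. Without fat body replicate 1 alone 1 was called higher, against 66 of the 199 then tested. The labels give replicate numbers and do not name pairs. Set side by side by number, miR-312-3p was lower in thorax each time. miR-92b-3p was lower in replicates 1 and 2 and higher in replicate 3, at 64.0 CPM against 50.5.

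The midgut names had 1 call of 6, against 62.4% of all tested, and thorax replicate 3 stood apart in them. miR-314-3p, named by the study for the gut, had 5.39, 8.30 and 18.8 CPM in thorax, against 80.3, 62.0 and 69.6 in fat body (log2 fold change -2.34 ± 0.49 SE, edgeR adjusted p = 0.00675). miR-956-3p had 111, 132 and 744 in thorax, against 1073, 757 and 808 in fat body (log2 fold change -1.08 ± 0.76 SE, edgeR adjusted p = 0.265), and its gut mean was 130198. Without thorax replicate 3 it was called lower (log2 fold change -2.26, adjusted p = 0.00184), which made 2 calls in the list. miR-958-3p had 1.73, 4.73 and 22.6 in thorax, against 4.86, 11.1 and 4.29 in fat body (log2 fold change 0.87 ± 0.94 SE, edgeR adjusted p = 0.442). The list summed to 121, 147 and 803 CPM in the thorax libraries, against 1171, 838 and 887 CPM in the fat body libraries. Thorax replicate 3 is also the library with the high miR-210-3p, and what these names share there was not tested.

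**Figure D4:**
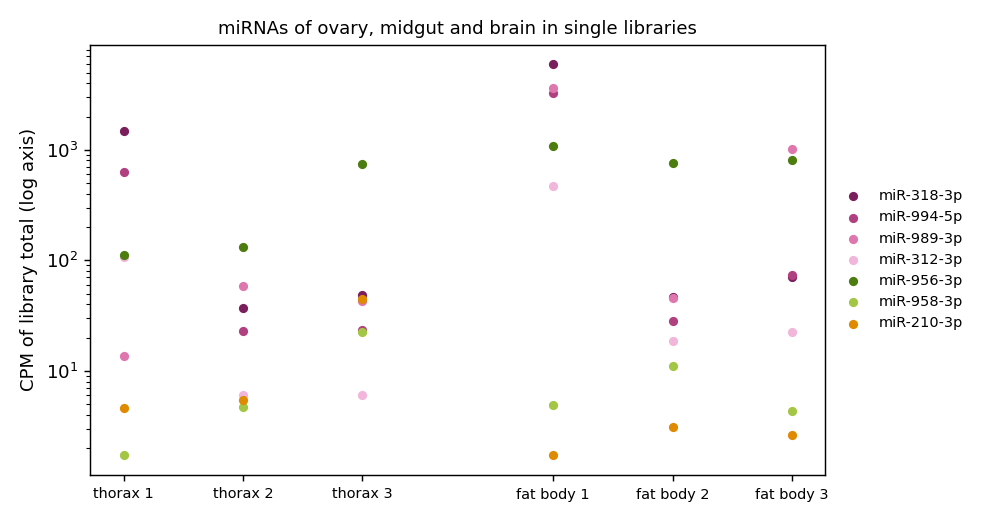
CPM (log axis) of 7 miRNAs in each library, thorax left and fat body right; each dot is 1 library, pink to purple dots are ovary names and miR-312-3p, green dots midgut names and the orange dots miR-210-3p. Both replicate 1 libraries are high in miR-318-3p, miR-994-5p and miR-312-3p, and thorax replicate 3 is the highest thorax library for miR-956-3p, miR-958-3p and miR-210-3p.

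Both arms of a hairpin were tested for 66 hairpins. Both were higher in thorax in 19 and both lower in 14, while 1 arm was called in 20, neither in 11, and the arms went opposite ways in 2. miR-929-5p, from an intron of cpx, a synaptic gene, had 23.5, 41.1 and 39.4 CPM in thorax, against 126, 202 and 242 in fat body (log2 fold change -2.02 ± 0.30 SE, edgeR adjusted p = 0.00171), while miR-929-3p had 6.10, 5.99 and 5.37 in thorax, against 1.59, 1.68 and 2.11 in fat body (log2 fold change 2.10 ± 0.20 SE, edgeR adjusted p = 0.000311). miR-998-5p, from an intron of E2f1, a cell cycle gene, had 25.4, 27.8 and 31.7 in thorax, against 8.98, 11.5 and 12.5 in fat body (log2 fold change 1.77 ± 0.18 SE, edgeR adjusted p = 0.000382), while miR-998-3p had 4.88, 5.78 and 7.95 in thorax, against 32.8, 19.7 and 22.5 in fat body (log2 fold change -1.65 ± 0.34 SE, edgeR adjusted p = 0.00675). In each case 1 strand rose and its partner fell, although miR-998-3p was not called in the fit of all 12 libraries (adjusted p = 0.0598).

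The ratio of 5p to 3p counts, taken within each library and so free of scaling between libraries, was tested with limma for 70 hairpins. It was called for 21 (30%), with a higher 5p share in thorax for 13 and a lower one for 8, and 18 of the 21 did not overlap between the tissues. The strand with more counts differed between the tissues for 2 of the 70. mir-998 had 83.9%, 82.8% and 79.9% of its counts on the 5p arm in thorax, against 21.5%, 36.8% and 35.7% in fat body (log2 ratio difference 3.37 ± 0.34 SE, limma adjusted p = 4.97e-05). mir-278 had 68.8%, 57.6% and 58.7% on the 5p arm in thorax, against 20.1%, 13.8% and 10.3% in fat body (log2 ratio difference 3.28 ± 0.32 SE, limma adjusted p = 4.03e-05). Both arms of miR-278 were lower in thorax, and the 3p strand fell more than the 5p strand, whose log2 fold change was -1.27.

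mir-277 had the largest fall in the 5p to 3p ratio on the log2 scale. miR-277-5p had 58.6, 55.4 and 61.9 CPM in thorax, against 77.8, 92.7 and 96.0 in fat body, and was not called (log2 fold change -0.20 ± 0.13 SE, edgeR adjusted p = 0.233) other than as lower with library totals (adjusted p = 0.0155), although its partner was 21.9-fold higher in thorax. The 5p arm held 0.0852%, 0.0913% and 0.102% of counts in thorax, against 2.44%, 2.26% and 2.14% in fat body (log2 ratio difference -4.65 ± 0.19 SE, limma adjusted p = 5.51e-08). mir-929 had 79.4%, 87.3% and 88.0% on the 5p arm in thorax, against 98.8%, 99.2% and 99.1% in fat body (log2 ratio difference -4.14 ± 0.39 SE, limma adjusted p = 4.03e-05). mir-927, whose 2 arms both rose, had 61.1%, 65.1% and 58.2% in thorax, against 89.3%, 85.8% and 87.6% in fat body (log2 ratio difference -2.13 ± 0.27 SE, limma adjusted p = 0.000183). In these hairpins the 2 strands differed between the tissues by unequal factors.

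On the same scale, rises of the ratio were led by mir-2c and mir-279, while mir-998 and mir-278 above had the larger rises in the share itself. For mir-2c the 5p share was 36.1%, 21.1% and 22.7% in thorax, against 1.36%, 0.444% and 5.58% in fat body (log2 ratio difference 4.28 ± 0.78 SE, limma adjusted p = 0.00247), a difference of 3.55 without fat body replicate 2 and 5.15 without fat body replicate 3. For mir-279 it was 3.99%, 1.70% and 2.67% in thorax, against 0.228%, 0.131% and 0.138% in fat body (log2 ratio difference 4.10 ± 0.45 SE, limma adjusted p = 6.56e-05), where miR-279-5p was not called (log2 fold change -0.35 ± 0.41 SE, edgeR adjusted p = 0.479) and miR-279-3p fell. mir-980 had 100.0%, 98.9% and 98.5% in thorax, against 93.9%, 94.5% and 90.9% in fat body (log2 ratio difference 3.40 ± 0.99 SE, limma adjusted p = 0.0297), resting on 5 counts of its 3p arm over the thorax libraries, and its call was lost without any 1 fat body library (adjusted p 0.0558 to 0.073), while the difference was 2.22 without thorax replicate 1 and 4.08 without thorax replicate 3. For mir-2494, with 10 counts of the 5p arm and 7 of the 3p arm in thorax, and mir-957, with 4 counts of the 5p arm in fat body, the falls of the 5p share had adjusted p-values of 0.0465 and 0.0455 and neither held with edgeR on the arm counts. mir-2494 also lost its call without replicate 2 or 3 of either tissue, and mir-957 without any 1 library other than fat body replicate 3. With the replicate block mir-957 was not called either (limma adjusted p = 0.0779), and 2 of the 21 arm calls were lost in all. The counts of miR-276a-5p and miR-276b-5p are identical in all 6 libraries, so the fall of the 5p share called for mir-276b (log2 ratio difference -1.66 ± 0.24 SE, limma adjusted p = 0.000552) sets a shared strand against its own 3p strand.

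**Figure D5:**
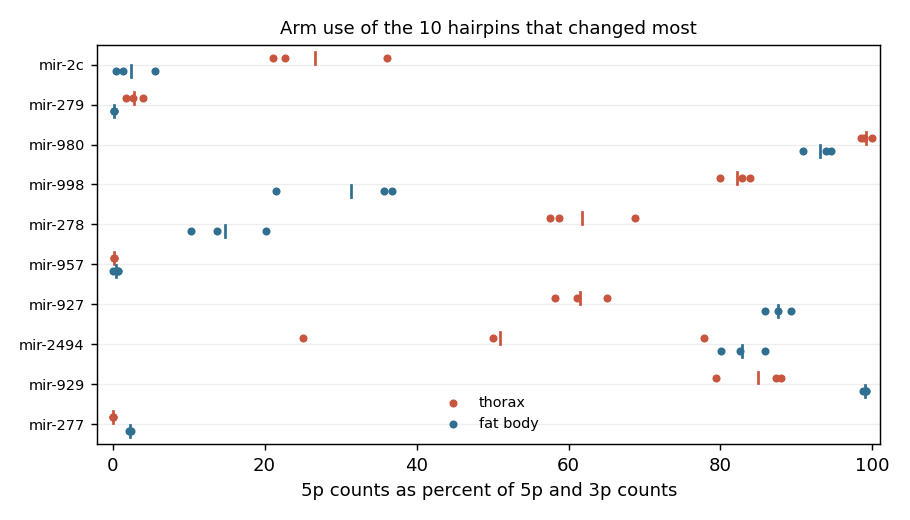
Counts of the 5p arm as percent of all counts of a hairpin in each library, for the called hairpins whose 5p to 3p ratio moved most in thorax, 5 up and 5 down; dots are libraries, vertical marks means (n = 3), and thorax (red) lies above fat body (blue). In mir-998 and mir-278 the thorax libraries lie above 50% and the fat body libraries below it.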

How the data were processed

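Small RNA was sequenced from 3 thorax and 3 fat body libraries, which the labels name. Reads of miRNAs were identified by the authors with miRDeep, and they deposited unscaled read counts for each mature miRNA with its hairpin. The miRNA annotation, the genome build and the handling of reads that match several hairpins were not given in the sources used here. Of 434 entries, 8 that repeated a mature name were dropped in favour of the entry with the highest total, which left 426 names, and 424 of them were matched to hairpins of the RefSeq annotation of the release 6 assembly.

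The tools were edgeR 4.0.16 and limma 3.58.1 under R 4.3.3, with pandas 2.3.3 and matplotlib 3.10.9 under Python 3.11.15 for tables and figures. Names that passed edgeR's expression filter were scaled by TMM and compared with the two-sided quasi-likelihood test, with Benjamini-Hochberg adjustment over all 197. That test gives no standard error. The SE printed for a fold change is the size of its log2 value divided by the square root of the F statistic, and so is approximate. For hairpins with at least 100 counts over both arms and 5 on the minor arm, log2 of the 5p to 3p ratio, with 0.5 added to each count, was compared with limma. Both procedures were run on simulated data with known changes, and the outcome is not given here. The simulated libraries were drawn independently, so libraries that stand apart in some names, as seen here, were not covered. The common dispersion was 0.223, with 9519544 to 23261153 counts per library. The quasi-likelihood fit also estimates a spread for each name, so precision differs between names, and the arm test uses limma's own spread. The exact interval given for miR-124-3p covers counting error only.

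Same-numbered libraries deviated together from their tissue means, with correlations of 0.68, 0.28 and 0.26 across miRNAs, all over 0.1, so the numbers were taken as pairs and a fit with a replicate block was made beside the plain one. Thorax replicate 2 correlated best with fat body replicate 3 (0.63) and thorax replicate 3 with fat body replicate 2 (0.36), and without the ovary and miR-92 names the same-numbered values were 0.19, -0.03 and -0.05.

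The miRNAs named are the 10 largest rises and 10 largest falls among called names with a mean of at least 10 CPM and no overlap, the 8 most abundant of each tissue, up to 4 members of each list by level, the 5 hairpins with the largest arm change each way, and those the study names. Any other name was picked with its values in view. Arms of the same hairpin are counted as separate names in the lists, although they come from the same precursor. The members and lists were chosen with earlier results of these data known. Alternatives were other size factors, count filters and tools (DESeq2 1.42.0, limma-voom), a fit of all 12 small RNA libraries, a fold threshold of 1.5, the replicate block and each library left out. Brain and gut comparisons were not made here.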

Additional observations from a re-analysis of the deposited data

How the results depend on the processing

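Over the alternatives, 41 to 72 miRNAs were called higher and 41 to 78 lower in thorax, against 63 and 60. The 41 higher came from testing only names with a mean of at least 10 CPM, where fewer names were tested. Leaving out 1 library gave 58 to 66 higher and 44 to 62 lower, and the replicate block gave 61 and 60, with 116 of the 123 calls kept, 7 lost and 5 gained. Calls lost with the block and not given above were those of miR-1010-5p, miR-2b-1-5p, miR-308-5p and miR-983-5p. Of the 71 named miRNAs and hairpins called, 51 kept their call under every alternative in which they were followed. The other 20 lost it under some, and none changed direction. Named calls were not followed under the fold threshold. A name removed by an alternative's filter was not tested there, and the 10 CPM filter left 85 of the 123 calls to test. For arms, a minor arm of at least 50 counts left 6 hairpins with a higher and 5 with a lower 5p share, against 13 and 8, and leaving out 1 library gave 7 to 15 and 5 to 8.

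Among the miRNAs and hairpins followed by name, 71 called and 30 not called, direction changed only for some that were not called. With library totals the log2 fold change was -0.132 for miR-276a-3p, -0.174 for miR-317-3p, -0.368 for miR-2b-2-5p, -0.105 for miR-12-5p and -0.0856 for miR-276a-5p and miR-276b-5p. miR-956-5p was at 0.169 with DESeq2, 0.167 with RLE size factors, 0.13 with TMM without miR-1-3p, 0.0755 with a filter of 10 counts and 0.0768 with no filter. miR-11-3p was at 0.0224 with DESeq2, 0.0224 with RLE size factors and 0.0437 with the 10 CPM filter. miR-13b-3p was at 0.144 with DESeq2 and with RLE size factors, 0.102 with TMM without miR-1-3p, 0.154 with the 10 CPM filter, 0.0141 with the 10 count filter, 0.0519 with no filter, 0.0142 with limma-voom and 0.0134 with the replicate block. miR-2b-2-5p was at -0.0625 in the fit of all 12 libraries. Without both replicate 1 libraries, an alternative chosen after seeing the data, miR-318-3p was at 0.00211, miR-956-5p at 0.964, miR-13b-3p at 0.0897, miR-2b-2-5p at -0.0645, miR-92b-3p at 0.20 and miR-314-5p at 0.568. Leaving out 1 library in turn gave ranges of -0.29 to 0.083 for miR-11-3p, -0.19 to 0.22 for miR-13b-3p, -0.28 to 0.30 for miR-2b-2-5p, -0.76 to 0.10 for miR-279-5p, -4.67 to 0.37 for miR-310-3p, -6.39 to 1.02 for miR-311-5p, -3.62 to 0.34 for miR-92a-3p, -4.86 to 1.22 for miR-311-3p, -4.56 to 1.26 for miR-312-3p, -1.58 to 0.027 for miR-314-5p, -5.34 to 3.46 for miR-318-3p, -1.12 to 0.66 for miR-92b-3p, -1.34 to 0.66 for miR-956-5p, -0.45 to 1.56 for miR-958-3p, -0.81 to 1.63 for miR-958-5p and -5.35 to 2.44 for miR-994-5p. The cause was not tested.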
